A study of Mus musculus with 24 samples.

Results

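Interferon-stimulated genes are the genes that cells switch on when they sense an interferon, and 45 of them were followed in mouse embryonic fibroblasts (MEFs) that had lost Myc, Mlx or both. All 45 were found by name in each of the 2 tables of read counts scaled to library size (CPM), one for primary and one for immortalized cells, among 41710 genes per table. The list held Ifit1, Ifit2, Ifit3, Ifit3b, Ifi44, Ifi35, Ifi27, Ifi203, Ifi204, Isg15, Isg20, Irf1, Irf7, Irf9, Stat2, Oas1a, Oas2, Oas3, Oasl1, Oasl2, Mx1, Mx2, Rsad2, Usp18, Bst2, Xaf1, Rtp4, Ifih1, Dhx58, Zbp1, Cmpk2, Parp9, Parp14, Dtx3l, Gbp2, Gbp3, Trim25, Trim30a, Trim30d, Samd9l, Herc6, Eif2ak2, Psmb8, Psmb9 and Psmb10. The list was drawn up partly because Trim30a and Trim30d were higher in immortalized cells lacking both genes than in immortalized WT cells, so every difference between those 2 groups is given as a description with no test. A gene was tested where 3 or more of the 12 libraries of its table held 1 CPM or more. In primary cells 44 members were tested among 13101 genes, with Mx1 left out, and in immortalized cells all 45 were tested among 12880.

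The MEFs came from embryos of about embryonic day 14 to 16 whose cells were pooled. The animals bore floxed alleles of Myc and/or Mlx together with a CreER transgene driven by the ROSA26 promoter, which all groups, controls included, therefore carried. Exposure to 500 nM 4OHT excised the floxed genes to give MycKO, MlxKO and double-knockout (DKO) cells, whereas WT cells were not given 4OHT and kept their floxed alleles intact. The vehicle was ethanol, which the labels give as 70% and the study's methods as undiluted, and immortalized WT cells are described only as kept in medium without 4OHT. Immortalized cells had been transduced, before excision, with a lentivirus encoding SV40 T antigen and selected with blasticidin. The study describes the sequenced primary MycKO and DKO cells as growth-arrested, and most immortalized MycKO cells as tetraploid or pseudo-tetraploid. The part of these states in the differences below was not tested. Each genotype had 3 libraries per table, made from triplicate RNAs that the study calls biological replicates. The labels do not tie a library to a culture or a set of embryos, so the p-values below measure the spread between these libraries. The study kept several WT lines and mostly used 1 as the control, and the labels do not say which line each WT library came from. In the study's methods embryos were pooled within each group of floxed animals, and only knockout cells had been given 4OHT. Gene deletion, line and 4OHT exposure therefore cannot be told apart in the comparisons with WT. The knockout groups came from animals with different floxed genes. Gene deletion and line therefore cannot be told apart between knockouts, or in the interaction term below, either.

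Interferons act through cell-surface receptors whose kinases phosphorylate STAT proteins. STAT2 and IRF9 belong to a complex that binds short DNA elements rich in GAAA repeats in front of the target genes. The products block viral entry, RNA copying and protein synthesis, tag proteins with the ubiquitin-like ISG15, or belong to the pathway itself, as IRF7, STAT2 and IRF9 do, so that a small standing level of interferon keeps the set expressed in cells that have met no virus. Fibroblasts are known both to make interferon beta and to respond to it.

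Library depth was 15986856 to 20966163 reads in primary cells and 17541112 to 19851300 reads in immortalized cells, so that 3 reads, the level at which a gene was taken to be near the counting limit, amounted to 0.145 to 0.196 CPM. Libraries of a group correlated with a Pearson r of 0.990 to 0.996 in primary cells. In immortalized cells 1 library, WT4, stood apart, with r of 0.943 to 0.950 to the other WT libraries against 0.992 between WT2 and WT3, so the members' immortalized results are given with and without it. Myc was lower in both primary Myc-deleted groups (25.8 to 26.8 CPM in MycKO and 19.9 to 22.9 in DKO against 89.8 to 100.1 in WT), and Mlx was lower in MlxKO (13.0 to 14.0) and DKO (9.73 to 12.0) than in WT (20.5 to 26.0), as their labels say. The same held in immortalized cells, where Myc was at 9.96 to 17.2 CPM in MycKO and 4.25 to 8.02 in DKO against 39.9 to 177 in WT. The fibroblast label was checked only by the summed level of 10 fibroblast markers, Col1a1, Vim and Thy1 among them. That sum was 42753 to 58686 CPM in primary and 18011 to 34569 CPM in immortalized libraries. A sum rests mostly on the most abundant markers, and Thy1 varied between immortalized WT libraries, as given below.

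The sequence that this pathway reads was looked for in RefSeq promoter windows (GRCm38.p6, 250 bases before to 50 after each start), which held 34 of the 45 members in 42 windows. The letters GAAANNGAAA, the core of the element bound by IRF proteins, were present on either strand in 17 of the 42 windows, belonging to 16 members, against 3.44% of all 32851 windows. The E-box CACGTG, which Myc-Max and Mlx heterodimers bind, was in those of Trim25 and Psmb10 (7.15% of all windows). These are matches of letters and not shown sites of binding. For 6 members whose values are described below, the match nearest the start follows, in 30 bases read on the gene's strand with that match in capitals. Isg15 held 3 overlapping matches, beginning 78, 72 and 66 bases before its start, and Ifit1 held 2, at 104 and 85 bases before, so that further matches lie partly within or beside their printed lines. A line whose capitals begin with TTTC carries it on the other strand.
Isg15, chr4:156200865-156200894, minus strand: aaaggaaaccGAAACAGAAAatagctctgg
Ifit1, chr19:34640794-34640823, plus strand: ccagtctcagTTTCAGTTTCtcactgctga
Stat2, chr10:128270266-128270295, plus strand: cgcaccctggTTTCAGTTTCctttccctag
Oas3, chr5:120777715-120777744, minus strand: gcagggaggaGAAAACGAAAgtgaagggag
Rsad2, chr12:26456553-26456582, minus strand: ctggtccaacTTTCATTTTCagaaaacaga
Gbp2, chr3:142620594-142620623, plus strand: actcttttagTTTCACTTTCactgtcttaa

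Trim30a and Trim30d, whose levels prompted the list, are neighbours on chromosome 7 (GRCm39, chr7:104058232-104114407 and chr7:104119221-104157107, both on the minus strand). The windows of Trim30d and of the upstream start of Trim30a were identical at 277 of 305 aligned columns (90.8%), against 67.0% for the second Trim30a start. The 250 bases before each start are printed because the pair share the same match, in capitals and on the other strand, within the same flanking bases, which begins 36 bases before the start in Trim30a and 41 bases before it in Trim30d.
Trim30a, GRCm38.p6 chr7:104465194-104465443, minus strand: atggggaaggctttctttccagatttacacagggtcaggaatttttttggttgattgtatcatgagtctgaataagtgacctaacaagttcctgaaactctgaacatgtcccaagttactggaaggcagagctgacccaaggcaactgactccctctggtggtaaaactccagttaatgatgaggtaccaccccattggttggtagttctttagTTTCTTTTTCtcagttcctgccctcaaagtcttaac
Trim30d, GRCm38.p6 chr7:104507850-104508099, minus strand: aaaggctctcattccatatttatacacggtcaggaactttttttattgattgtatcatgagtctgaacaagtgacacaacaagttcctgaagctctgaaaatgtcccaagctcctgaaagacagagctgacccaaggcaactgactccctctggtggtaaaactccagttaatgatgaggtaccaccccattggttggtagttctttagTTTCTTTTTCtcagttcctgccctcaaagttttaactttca

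In primary cells the members were expressed at very different levels. Per kilobase of exon, mean WT values ran from 0.222 CPM per kb for Mx1, a dynamin-like GTPase that blocks viral replication, to 153 for Bst2, which tethers budding virus to the cell surface, with Isg15 next at 81.7. The summed level of the 45 members was 1392 to 1644 CPM in WT, 1417 to 1478 in MlxKO, 1213 to 1292 in DKO and 729 to 779 in MycKO, so that all MycKO libraries lay below all others. Values are given library by library, in the order WT1, WT2, WT3, MycKO9, MycKO10, MycKO11, MlxKO5, MlxKO6, MlxKO7, DKO13, DKO14 and DKO15, by the library names in the tables, with WT2, WT3 and WT4 as the immortalized WT libraries. Differences below are on the log2(CPM + 1) scale, which understates the change of genes near 1 CPM, with standard errors and Benjamini-Hochberg adjusted p-values from limma over all genes tested. A member is said to have risen or fallen where its adjusted p was under 0.05.

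**Figure D1:**
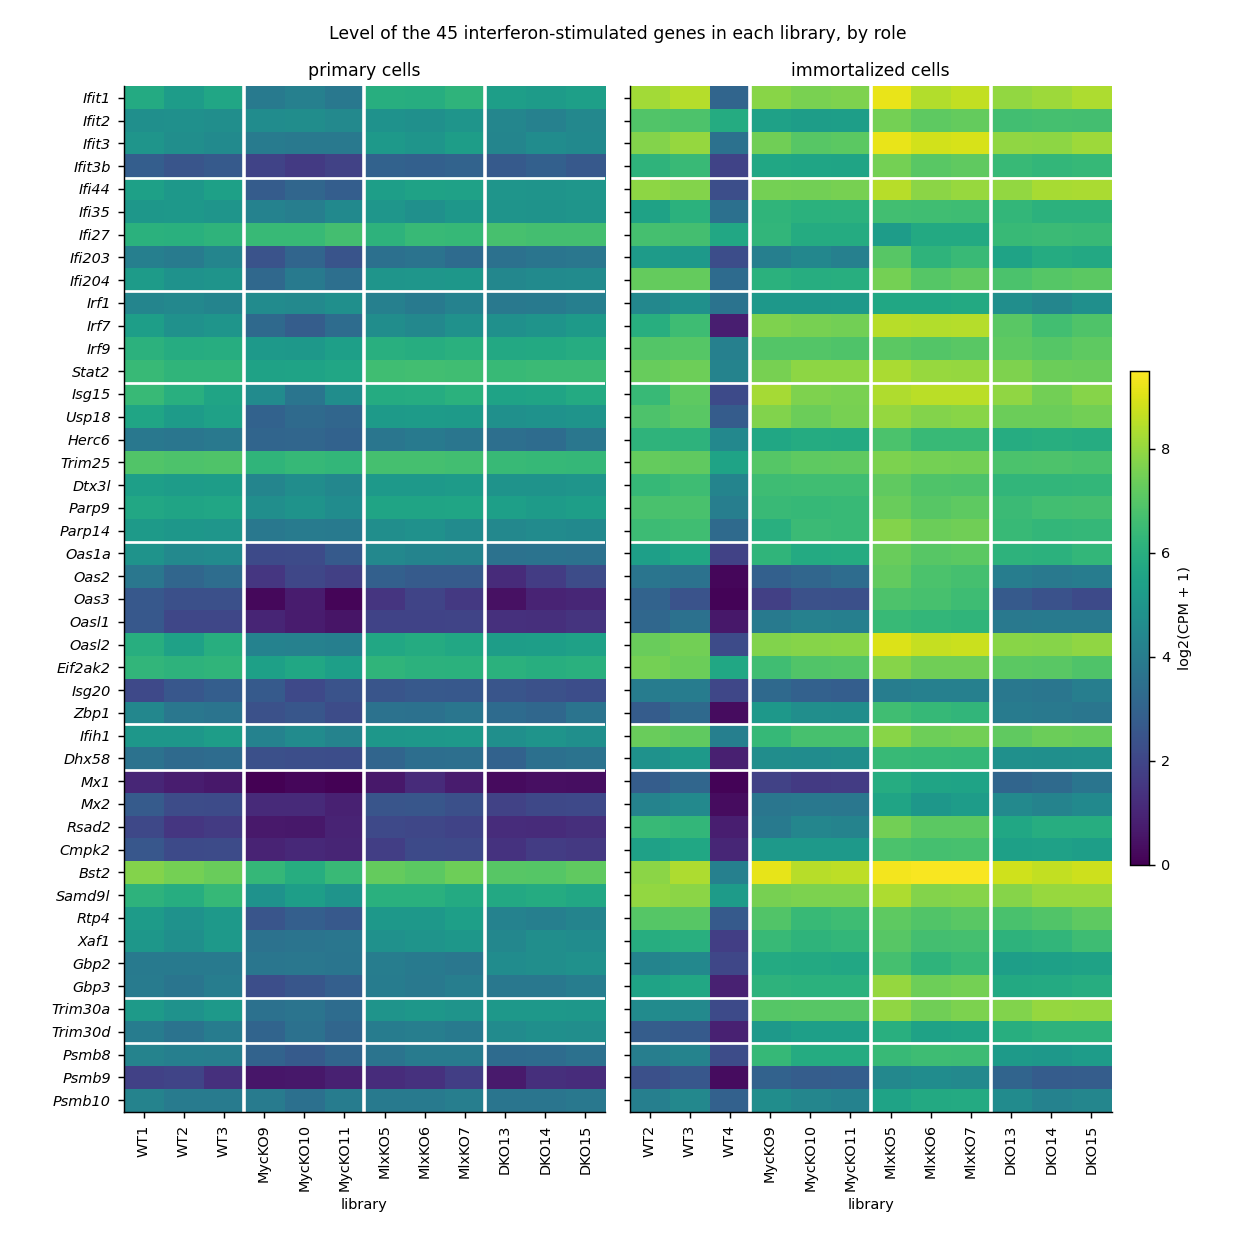
Level of each of the 45 members in the 24 libraries as log2(CPM + 1), members as rows grouped by role and libraries as columns grouped by genotype, primary cells left and immortalized cells right, from dark (0) to yellow (highest). The primary MycKO columns and the immortalized library WT4 are dark over most of the list, and the immortalized MlxKO columns are the brightest.

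Most of the list was lower in primary MycKO cells than in primary WT cells. Of the 44 members tested 38 fell and 1 rose in MycKO against WT, where 21.9% of all genes tested fell and 20.4% rose. The median difference was -1.15, from -2.38 for Rtp4 and Ifi44 to 0.41 for Ifi27, against 0.00 over all genes. The 5 members not called were Ifit2, Isg20, Irf1, Gbp2 and Psmb10. By role, 7 of 7 members of the ISG15 system and its ubiquitin ligases fell, as did 7 of 8 OAS and RNA-binding effectors, 8 of 9 antiviral effectors, 4 of 5 other IFI genes, 3 of 4 IFIT genes, both RNA sensors, both TRIM30 genes and 2 of 3 immunoproteasome subunits.

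In primary MlxKO cells most members did not differ from WT past the threshold, with 29 differences below 0 and 15 above it. In MlxKO against WT 3 members rose and 4 fell, where 3.75% of all genes rose and 5.14% fell, and the median difference was -0.06 (-0.76 to 0.45). The calls rested on single libraries: each of the 7 was lost when at least 1 of the 12 libraries was left out, and the count ranged from 1 without MlxKO7 to 10 without MycKO10.

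Levels in primary DKO cells lay mostly between those of MycKO and WT. Against WT, 26 members fell and 3 rose in DKO (25.5% and 24.0% of all genes), with a median of -0.37. Against MycKO, 35 members were higher and 1 lower in DKO (10.6% and 11.0% of all genes), with a median of 0.69 against -0.01 over all genes. All 9 antiviral effectors tested, both RNA sensors, both TRIM30 genes, 6 of 7 members of the ISG15 system and 5 of 8 OAS and RNA-binding effectors were among the 35. The comparisons of MycKO, MlxKO and DKO with WT share the WT libraries, and that of DKO with MycKO shares those of both groups, so these counts are not independent of each other.

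For most members the DKO minus MycKO difference therefore departed from the MlxKO minus WT difference. The interaction term, the DKO minus MycKO difference less the MlxKO minus WT difference, was above 0 and past the threshold for 34 of 44 members and below 0 for none, against 7.47% above and 6.07% below over all genes. Its median was 0.88 (-0.39 to 2.23). At an unadjusted p under 0.05 the term was below 0 for Ifit2 and Irf1 (limma, adjusted p = 0.061 and 0.144), and past the adjusted threshold it was below 0 for 0 members with edgeR and with DESeq2.

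**Figure D2:**
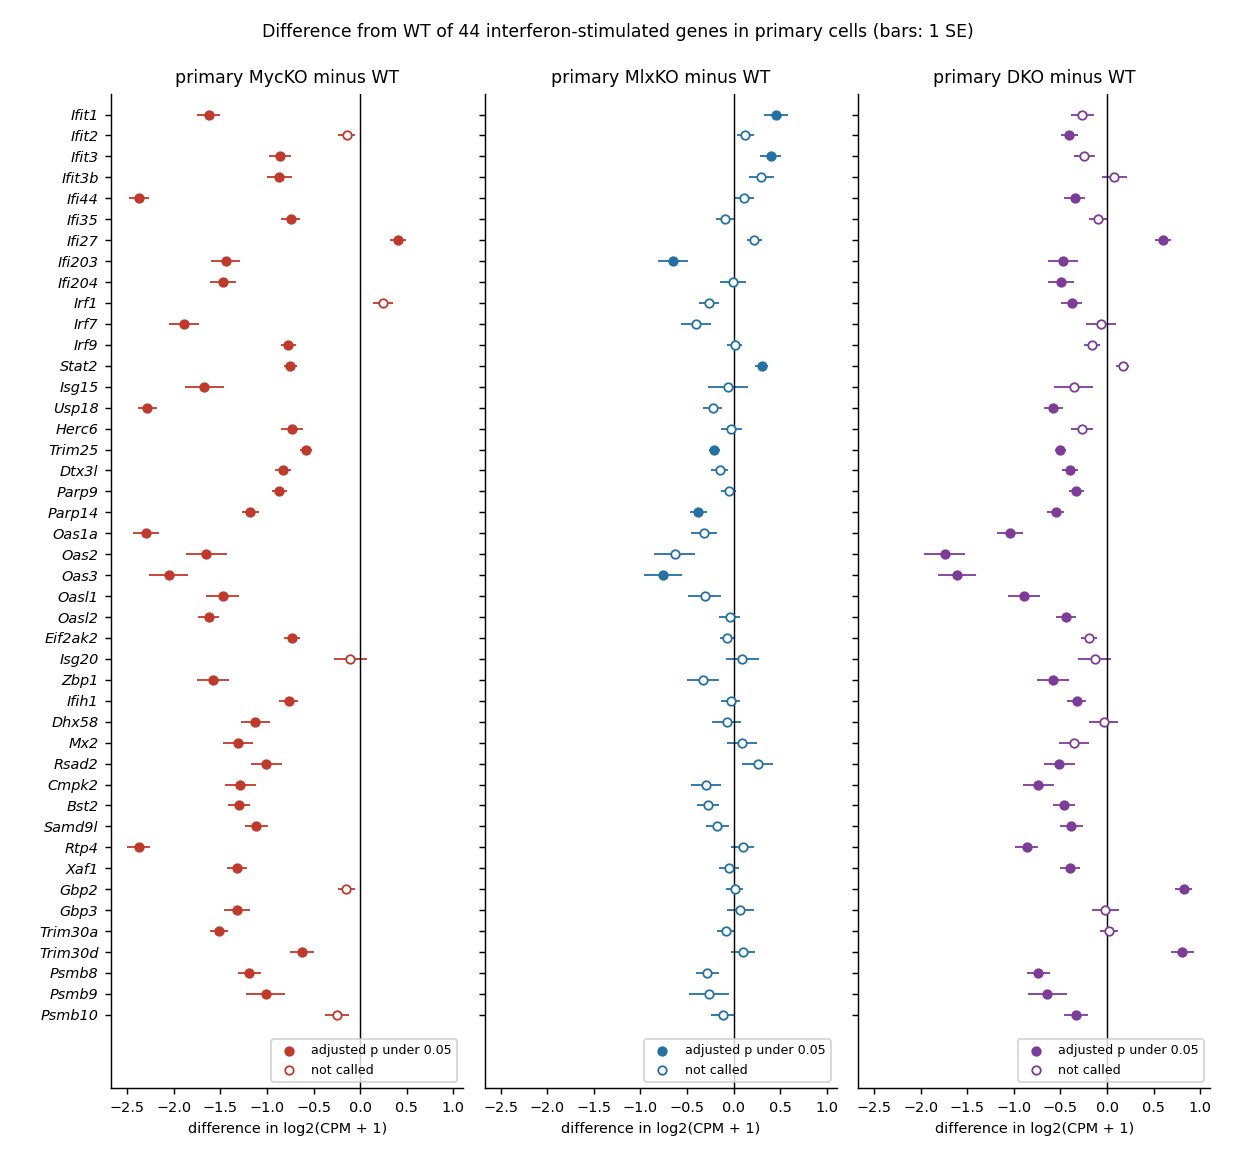
Difference from WT in log2(CPM + 1) of the 44 members tested in primary cells, in panels for MycKO, MlxKO and DKO, 1 point per member with a bar of 1 SE, filled where the adjusted p was under 0.05. MycKO points lie mostly left of 0 (38 filled there), MlxKO points around it and DKO points mostly left of it but nearer, with Ifi27, Gbp2 and Trim30d filled to the right.

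The transcription factors of the pathway were split. Irf7, the factor that amplifies interferon production, was at 39.2, 26.6 and 30.1 CPM in the WT libraries, 8.59, 5.89 and 9.27 CPM in MycKO, 24.0, 20.5 and 26.8 CPM in MlxKO and 26.5, 29.5 and 35.1 CPM in DKO. All MycKO libraries were below all others, and the WT and DKO libraries overlapped. Irf7 fell in MycKO against WT by 1.89 ± 0.16 (limma, adjusted p = 1.39e-07) and was higher in DKO than in MycKO by 1.83 ± 0.16 (adjusted p = 3.72e-07). Its interaction term, 2.23 ± 0.23 (adjusted p = 4.36e-06, limma), was the largest of the 44, and its DKO minus WT difference was -0.06 ± 0.16 (adjusted p = 0.77). In MlxKO against WT the difference was -0.40 ± 0.16 (adjusted p = 0.131).

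Stat2 and Irf9 encode parts of the DNA-binding complex that interferon activates. Stat2 was at 84.4, 73.9 and 72.8 CPM in WT, 43.5, 44.2 and 48.3 CPM in MycKO, 94.0, 96.8 and 94.2 CPM in MlxKO and 83.7, 87.0 and 88.6 CPM in DKO. Irf9 was at 67.4, 57.6 and 59.8 CPM in WT, 34.1, 32.6 and 40.6 CPM in MycKO, 62.4, 59.8 and 63.6 CPM in MlxKO and 52.7, 53.9 and 58.1 CPM in DKO. For both genes the MycKO libraries were the lowest and did not overlap with any other group. Stat2 fell in MycKO by 0.75 ± 0.07 (limma, adjusted p = 3.4e-07), rose in MlxKO by 0.30 ± 0.07 (adjusted p = 0.0111) and was higher in DKO than in MycKO by 0.92 ± 0.07 (adjusted p = 6.46e-08). The rise in MlxKO passed without every library but WT2, where it was 0.27. Against WT the DKO difference of Stat2 was 0.17 ± 0.07 (adjusted p = 0.055), a value that passed the threshold with edgeR and DESeq2 on the recovered reads. Irf9 fell in MycKO by 0.77 ± 0.09 (limma, adjusted p = 2.3e-06) and was higher in DKO than in MycKO by 0.61 ± 0.09 (adjusted p = 6.34e-05). The interaction terms were 0.62 ± 0.10 for Stat2 (adjusted p = 0.00034, limma) and 0.60 ± 0.12 for Irf9 (adjusted p = 0.00262).

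Irf1, a factor that interferon gamma induces, did not follow them. It was at 19.0, 20.8 and 18.3 CPM in WT, 22.8, 21.0 and 25.8 CPM in MycKO, 16.5, 13.9 and 17.5 CPM in MlxKO and 13.5, 14.3 and 16.2 CPM in DKO, so MycKO was the highest group. Irf1 was the only member lower in DKO than in MycKO (-0.63 ± 0.11, limma, adjusted p = 0.000454), and it fell in DKO against WT by 0.38 ± 0.11 (adjusted p = 0.00765). Its differences from WT were 0.25 ± 0.11 in MycKO (adjusted p = 0.0793) and -0.27 ± 0.11 in MlxKO (adjusted p = 0.137). Of the 50-base stretches of Irf1, 38.2% also occur in 3 genes on the opposite strand, Gm17334, Gm12216 and Gm74496, and whether the counting used strand is not given in the sources used here.

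The IFIT proteins bind viral RNA that lacks the host's cap marks. Ifit1 was at 55.6, 36.7 and 48.6 CPM in WT, 13.9, 16.4 and 12.9 CPM in MycKO, 60.5, 59.9 and 71.6 CPM in MlxKO and 38.7, 36.4 and 40.2 CPM in DKO. Its MycKO libraries were lowest and its MlxKO libraries highest, without overlap. It fell in MycKO by 1.63 ± 0.13 (limma, adjusted p = 5.1e-08) and rose in MlxKO by 0.45 ± 0.13 (adjusted p = 0.0318). Ifit3 was at 29.7, 24.9 and 22.3 CPM in WT, 14.4, 13.2 and 13.2 CPM in MycKO, 34.1, 30.0 and 38.0 CPM in MlxKO and 18.9, 23.3 and 22 CPM in DKO. It fell by 0.86 ± 0.11 in MycKO (adjusted p = 1.51e-05, limma) and rose by 0.40 ± 0.11 in MlxKO (adjusted p = 0.038). Ifit3 and its near copy Ifit3b share 31.7% and 48.0% of their 50-base stretches with other genes, mostly with each other, so reads could be split between them. Ifit2, at 21.0 to 24.4 CPM in MycKO against 24.8 to 26.2 in WT, was the member of this family that was not called, and it fell in DKO against WT by 0.40 ± 0.09.

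Among the other IFI genes, Ifi44 showed the deepest fall. This cytoplasmic protein was at 41.4, 32.7 and 41.6 CPM in WT, 5.82, 7.85 and 6.18 CPM in MycKO, 39.3, 43.2 and 42.3 CPM in MlxKO and 30.1, 29.0 and 30.5 CPM in DKO. It fell in MycKO by 2.38 ± 0.11 (limma, adjusted p = 3.38e-10) and in DKO by 0.35 ± 0.11 (adjusted p = 0.0138), and was higher in DKO than in MycKO by 2.03 ± 0.11 (adjusted p = 2.17e-09). Ifi203, of the family of nuclear DNA-binding p200 proteins, was at 16.2, 14.4 and 19.0 CPM in WT, 4.44, 7.65 and 4.58 CPM in MycKO, 10.3, 11.2 and 8.99 CPM in MlxKO and 10.6, 11.8 and 12.4 CPM in DKO. It was lower than WT in all knockouts without overlap, by 1.45 ± 0.16 in MycKO, 0.65 ± 0.16 in MlxKO and 0.47 ± 0.16 in DKO (limma, adjusted p = 2.14e-06, 0.0167 and 0.0215). Its neighbour Ifi204 fell from 28.0 to 36.3 CPM in WT to 8.37 to 13.9 CPM in MycKO. Ifi203 and Ifi204 share 15.3% and 20.6% of their stretches with other genes.

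Ifi27, a small mitochondrial protein, went the other way. It was at 65.4, 64.1 and 71.1 CPM in WT, 83.9, 83.1 and 101.1 CPM in MycKO, 70.0, 82.8 and 82.3 CPM in MlxKO and 105, 99.7 and 100.9 CPM in DKO. It was the 1 member that rose in MycKO (0.41 ± 0.08, limma, adjusted p = 0.000892) and it rose in DKO by 0.60 ± 0.08 (adjusted p = 1.84e-05). Its DKO minus MycKO difference was 0.19, with an adjusted p of 0.115 from limma.

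The ISG15 system attaches a ubiquitin-like tag to proteins and removes it. Isg15, the tag itself, was at 82.7, 63.4 and 45.6 CPM in WT, 22.7, 11.9 and 24.4 CPM in MycKO, 56.0, 57.9 and 65.5 CPM in MlxKO and 44.5, 46.3 and 54.5 CPM in DKO. Usp18, which strips the tag and damps the interferon receptor, was at 47.3, 36.2 and 42.8 CPM in WT, 6.93, 8.76 and 7.77 CPM in MycKO, 34.9, 36.4 and 35.6 CPM in MlxKO and 26.3, 27.7 and 29.2 CPM in DKO. It fell in MycKO by 2.29 ± 0.10 (limma, adjusted p = 2.47e-10) and in DKO by 0.58 ± 0.10 (adjusted p = 0.000181), with an interaction term of 1.93 ± 0.14 (adjusted p = 1.56e-07). The DKO libraries thus lay between the WT and the MycKO libraries without overlap with either.

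Parp14, an ADP-ribosyltransferase, and Trim25, a ubiquitin ligase that also conjugates ISG15, were lower than WT in all knockouts. Parp14 was at 35.4, 31.3 and 30.7 CPM in WT, 12.9, 14.6 and 13.8 CPM in MycKO, 24.7, 26.6 and 22.9 CPM in MlxKO and 20.9, 23.0 and 21.5 CPM in DKO. Trim25 was at 119, 114 and 117 CPM in WT, 73.1, 81.4 and 78.2 CPM in MycKO, 104, 102 and 96.8 CPM in MlxKO and 84.4, 81.5 and 80.1 CPM in DKO. In MlxKO the falls were 0.38 ± 0.09 for Parp14 (limma, adjusted p = 0.0135) and 0.21 ± 0.06 for Trim25 (adjusted p = 0.0415), the latter not called when only WT and MlxKO were fitted. Trim25 was the member of the ISG15 group whose DKO and MycKO levels did not differ past the threshold (0.08, adjusted p = 0.399, limma).

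The oligoadenylate synthetases make the messenger that activates RNase L. Oas1a, Oas2 and Oas3 were lower in DKO than in WT by more than 1 on the log2 scale. Oas1a was at 28.2, 21.0 and 23.2 CPM in WT, 3.44, 3.53 and 5.48 CPM in MycKO, 20.8, 18.4 and 18.0 CPM in MlxKO and 11.0, 11.1 and 11.1 CPM in DKO. It fell by 2.30 ± 0.14 in MycKO (limma, adjusted p = 5.01e-09) and by 1.05 ± 0.14 in DKO (adjusted p = 1.24e-05). Oas2 was at 12.6, 7.77 and 9.47 CPM in WT, 1.83, 3.07 and 2.49 CPM in MycKO, 6.50, 5.68 and 5.65 CPM in MlxKO and 1.23, 2.22 and 3.63 CPM in DKO. Its DKO and MycKO libraries overlapped, and its falls against WT were 1.74 ± 0.22 in DKO and 1.65 ± 0.22 in MycKO (adjusted p = 7.78e-06 and 1.8e-05, limma).

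Oas3 was at 5.14, 4.02 and 3.97 CPM in WT, 0.166, 0.654 and 0.0996 CPM in MycKO, 1.76, 2.87 and 1.95 CPM in MlxKO and 0.358, 0.951 and 1.04 CPM in DKO. Every knockout library was below every WT library, and in MycKO the level came down to a few reads. The falls were 2.06 ± 0.21 in MycKO, 1.61 ± 0.21 in DKO and 0.76 ± 0.21 in MlxKO (limma, adjusted p = 8.23e-07, 8.12e-06 and 0.0294), and the last was not called with a pseudocount of 0.1 or with edgeR. Oasl1, a relative without the enzyme activity that restrains Irf7 translation, was at 5.14, 3.10 and 3.10 CPM in WT, 0.998, 0.654 and 0.448 CPM in MycKO, 2.77, 2.75 and 2.82 CPM in MlxKO and 1.48, 1.43 and 1.67 CPM in DKO. It fell by 1.48 ± 0.18 in MycKO and 0.89 ± 0.18 in DKO (adjusted p = 4.71e-06 and 0.000494, limma). Of the other RNA-binding effectors, Zbp1, Oasl2 and Eif2ak2, the kinase that halts translation, fell in MycKO by 1.58, 1.63 and 0.73, whereas Isg20, an exonuclease at 3.27 to 6.08 CPM in WT, had a difference of -0.11. The RNA sensors Ifih1 and Dhx58 fell by 0.77 and 1.12.

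Among the antiviral effectors, Rtp4 and Gbp2 marked the ends of the range. Rtp4, a receptor-transporting protein, was at 36.4, 27.4 and 33.8 CPM in WT, 4.71, 6.28 and 5.33 CPM in MycKO, 32.3, 32.4 and 40.1 CPM in MlxKO and 17.4, 16.0 and 18.7 CPM in DKO. It fell by 2.38 ± 0.12 in MycKO (limma, adjusted p = 1.11e-09) and by 0.86 ± 0.12 in DKO (adjusted p = 2.39e-05). Gbp2, a guanylate-binding protein that attacks the vacuoles of pathogens, was at 13.5, 13.7 and 13.9 CPM in WT, 12.3, 12.5 and 12.0 CPM in MycKO, 15.4, 13.7 and 12.5 CPM in MlxKO and 23.5, 25.0 and 26.7 CPM in DKO. The DKO libraries were the highest without overlap, by 0.82 ± 0.09 over WT and 0.97 ± 0.09 over MycKO (adjusted p = 2.08e-06 and 1.02e-06, limma). Mx1 was not tested, being at 0.526 to 1.02 CPM in WT and 0 to 0.131 CPM in MycKO, the latter at or under the value of 3 reads.

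Trim30a encodes a TRIM protein that restrains inflammatory signalling, and Trim30d encodes a relative of it. The rule that names both genes refers to their immortalized values. Trim30a was at 34.7, 28.0 and 33.3 CPM in WT, 10.6, 11.7 and 9.36 CPM in MycKO, 29.4, 31.6 and 29.4 CPM in MlxKO and 32.9, 32.8 and 31.3 CPM in DKO. Trim30d was at 15.1, 11.4 and 14.7 CPM in WT, 7.37, 10.5 and 7.87 CPM in MycKO, 14.7, 15.5 and 13.8 CPM in MlxKO and 23.2, 25.8 and 24.9 CPM in DKO. Both were lowest in MycKO, but DKO overlapped with WT for Trim30a and exceeded every other group for Trim30d. Trim30a fell in MycKO by 1.51 ± 0.10 (limma, adjusted p = 7.11e-09), and its DKO minus WT difference was 0.02 (adjusted p = 0.885). Trim30d fell in MycKO by 0.62 ± 0.13 (adjusted p = 0.000886, limma) and rose in DKO against WT by 0.81 ± 0.13 (adjusted p = 6.41e-05). The DKO minus MycKO differences were 1.53 ± 0.10 and 1.43 ± 0.13 (adjusted p = 1.14e-08 and 4.57e-07, limma), and the interaction terms 1.61 ± 0.14 and 1.33 ± 0.18 (adjusted p = 6.5e-07 and 8.31e-05). Trim30d shares 8.10% of its 50-base stretches with Trim30a, Trim30b and Trim30c, so a part of the reads of Trim30a and Trim30d could come from each other. Trim30a shares 17.4% of its stretches, with 362 other genes. Those sharing most with it were Gm42553, Gne, Dnajc14 and Gm36976.

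The immunoproteasome subunits, which replace the constitutive ones when peptides are made for presentation, had a median difference of -1.01 in MycKO against WT. Psmb8 and Psmb9 fell in MycKO by 1.19 and 1.01, and all 3 subunits fell in DKO against WT, by 0.74, 0.64 and 0.33 for Psmb8, Psmb9 and Psmb10. Psmb8 alone of the 3 was higher in DKO than in MycKO, by 0.45. Psmb9 and Tap1, which overlap, share 16.5% of the stretches of Psmb9.

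Markers of macrophages, cells that express many interferon-stimulated genes, moved with these differences. The summed level of 15 macrophage markers was 722, 574 and 372 CPM in WT, 96.5, 65.9 and 72.9 CPM in MycKO, 395, 491 and 438 CPM in MlxKO and 139, 122 and 283 CPM in DKO, and none of the 15 was at 0 in any primary library. All 15 fell in MycKO and in DKO against WT (medians -2.55 and -1.64) and none was called in MlxKO, while 11 were higher in DKO than in MycKO and 12 had an interaction term above 0. Csf1r, the receptor for the macrophage growth factor, was at 63.7, 52.6 and 34.3 CPM in WT and 7.15, 6.28 and 7.12 CPM in MycKO. Its DKO values were 13.0, 10.9 and 23.4 CPM, so that DKO lay between MycKO and WT for this marker. In pooled cells, fewer cells of a type and less RNA per cell cannot be told apart, and the part of the macrophages in the members' differences was not tested. The keratins Krt8 and Krt18 of the epithelial list were lower than WT in all knockouts (list sums 16.5 to 19.9 CPM in WT and 1.95 to 4.83 CPM elsewhere), as was endothelial Kdr (17.4 to 17.7 and 5.33 to 11.1 CPM for that list). Of 3 endothelial markers tested, 1 fell and 2 were not called in MycKO and in MlxKO, whereas in DKO 1 fell and 1 rose. Des of the muscle list was lower in MycKO and MlxKO.

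**Figure D3:**
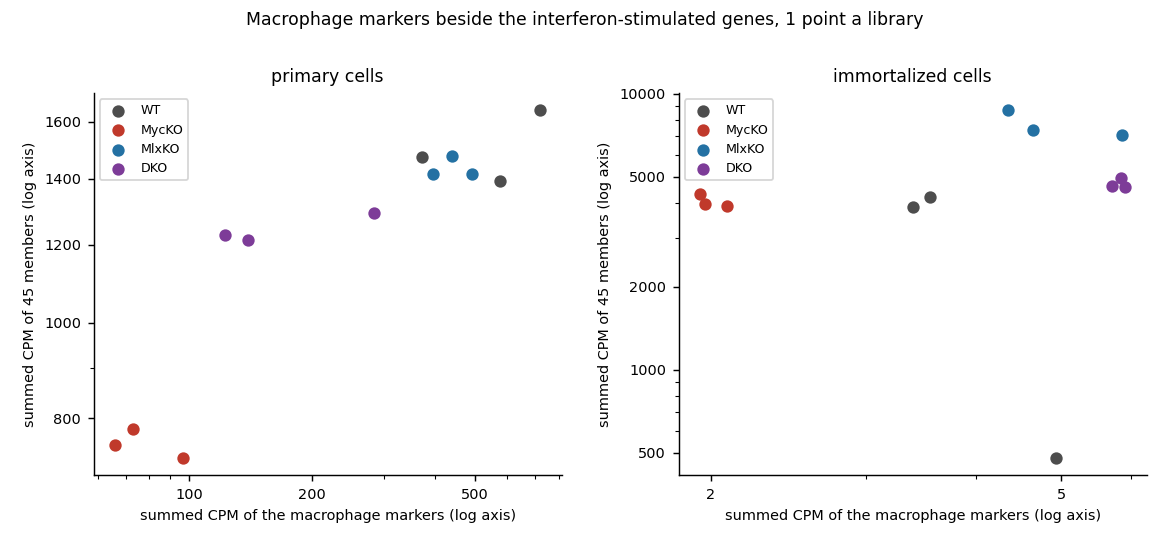
Summed CPM of the 45 members (vertical) against the summed CPM of 15 macrophage markers (horizontal), 1 point per library coloured by genotype, both axes logarithmic, with primary cells left and immortalized cells right. In primary cells the MycKO libraries are lowest on both axes, at 65.9 to 96.5 CPM of markers, and WT and MlxKO libraries lie at 372 to 722 CPM, whereas no immortalized library exceeds 5.91 CPM of markers and WT4 is lowest on the vertical axis only.

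The rest of the pathway was read from fixed lists of 10 ligands, 6 receptors, 5 kinases and STATs, 13 sensors and adaptors and 10 inhibitors and nucleic acid enzymes. All 10 interferon ligands were at 0 reads in every primary library, so any standing transcript was under the counting limit. In MycKO against WT 20.4% of all genes rose and 21.9% fell. Of 5 kinases and STATs, Jak2 (0.43) and Stat3 (0.27) rose in MycKO and 1 fell. Of 5 receptors tested, Ifngr1 (0.26) and Ifngr2 (0.23) rose and none fell. Of 10 sensors and adaptors tested, 4 fell in MycKO, namely the RNA sensor Ddx58 (-0.71), the DNA sensors Cgas (-0.61) and Aim2 (-0.77), and Irf5 (-0.87), and none rose. Of 10 inhibitors, the nucleic acid enzymes Trex1 (-0.68), Adar (-0.40) and Samhd1 (-0.59) fell and none rose. In MlxKO the adaptor Sting1 (-0.26) was the only one of these lists to be called. Against MycKO, Ddx58, Irf5, Socs1, Socs3, Trex1, Adar and Samhd1 were higher in DKO and Sting1 and Rnaseh2b lower. Of 5 kinases and STATs 1 was also higher, where 10.6% of all genes were higher and 11.0% lower.

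In immortalized cells 1 WT library was far below the rest. The summed level of the 45 members was 3882 and 4220 CPM in WT2 and WT3, 3916 to 4322 CPM in MycKO, 7069 to 8709 CPM in MlxKO, 4604 to 4934 CPM in DKO and 480 CPM in WT4. Against the mean of WT2 and WT3, the median member was 2.93 lower in WT4 on the log2 scale, with 44 members more than 1 lower, whereas over all 12880 genes the median was 0.00 and 6.97% were more than 1 lower. For 43 members WT4 held the lowest of the 12 values. WT4 also differed in other genes, with Myc at 177 CPM against 48.1 and 39.9, Pdgfra at 565 against 98.8 and 116 CPM, and Thy1 at 124 against 14.9 and 21.1 CPM. What sets WT4 apart was not tested. Primary and immortalized values stand in separately made tables and were not tested against each other.

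**Figure D4:**
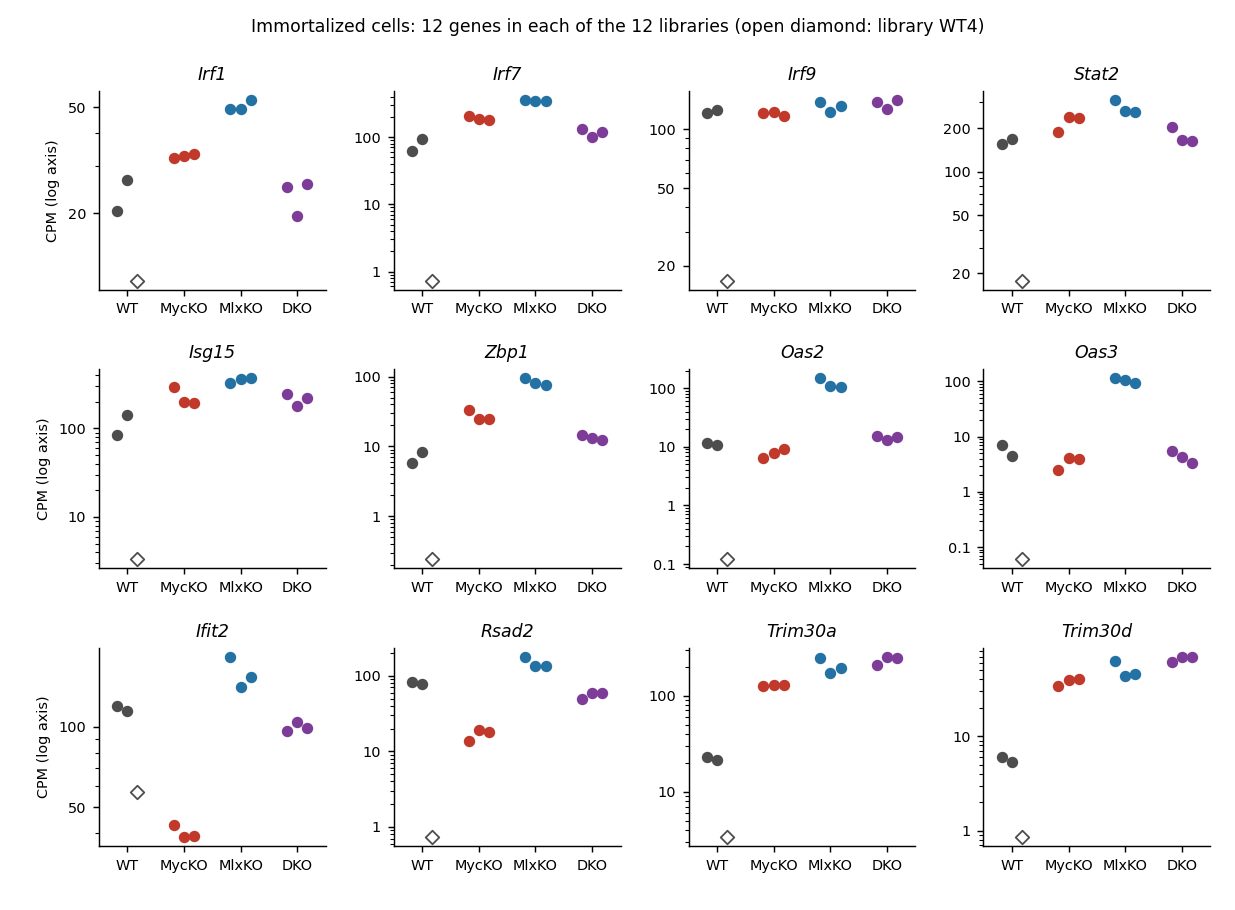
CPM of 12 members in each immortalized library on a log axis, by genotype, with 1 point per library and library WT4 as an open diamond. WT4 lies far below WT2 and WT3 for most of the genes shown, Oas2 and Oas3 stand highest in MlxKO, and Trim30a and Trim30d are higher in all knockout libraries than in all WT libraries.

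Immortalized MlxKO cells held the highest levels of the list. With all libraries 31 members rose and 1, Ifi27, fell in MlxKO against WT (19.1% and 19.9% of all genes), with a median of 2.29. Without WT4, 35 rose and 1 fell (23.1% and 23.8%), with a median of 0.97. With only WT and MlxKO fitted, 12 members were called. With all libraries the risers were 6 of 8 OAS and RNA-binding effectors, 7 of 10 antiviral effectors, 4 of 7 members of the ISG15 system, 3 of 4 IFIT genes, 3 of 4 transcription factors, both TRIM30 genes and all 3 immunoproteasome subunits. The count with all libraries was between 18 and 39 when single libraries were left out, 18, 20 and 21 without MlxKO6, MlxKO5 and MlxKO7 and 39 without WT3.

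The synthetases Oas3 and Oas2 led. Oas3 was at 7.09, 4.38 and 0.0609 CPM in WT2, WT3 and WT4, 114, 106 and 92.9 CPM in MlxKO, 2.50, 4.12 and 3.94 CPM in MycKO and 5.40, 4.30 and 3.37 CPM in DKO. Oas2 was at 11.8, 10.8 and 0.122 CPM in WT, 148, 110.3 and 104 CPM in MlxKO, 6.49, 7.85 and 9.17 CPM in MycKO and 15.2, 13.2 and 14.7 CPM in DKO. For both genes every MlxKO library was far above every other library, the DKO libraries included. The WT4 values of both lay under the value of 3 reads. Oas3 rose in MlxKO by 4.87 ± 0.54 (limma, adjusted p = 0.000123) and by 3.99 ± 0.22 without WT4 (adjusted p = 1.31e-08). Oas2 rose by 4.44 ± 0.68 (limma, adjusted p = 0.000724) and by 3.29 ± 0.17 without WT4 (adjusted p = 6.67e-09). Oas3 had fallen in MlxKO in primary cells.

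Zbp1, a sensor of left-handed nucleic acid that starts necroptosis, was at 5.80, 8.43 and 0.243 CPM in WT, 94.6, 82.3 and 76.2 CPM in MlxKO, 32.8, 24.6 and 24.3 CPM in MycKO and 14.4, 13.4 and 12.1 CPM in DKO. The order MlxKO, MycKO, DKO, WT held with no overlap between the groups. Zbp1 rose in MlxKO by 4.30 ± 0.54 and in MycKO by 2.70 ± 0.54 (limma, adjusted p = 0.000245 and 0.00154), and without WT4 by 3.41 ± 0.17 and 1.81 ± 0.17 (adjusted p = 6.25e-09 and 1.02e-06). Irf7 was at 61.5, 92.9 and 0.730 CPM in WT, 355, 339 and 343 CPM in MlxKO, 202, 185 and 178 CPM in MycKO and 133, 98.8 and 119 CPM in DKO, in the same order. It rose by 4.00 ± 1.05 in MlxKO and 3.13 ± 1.05 in MycKO (adjusted p = 0.0112 and 0.0272, limma), and by 2.18 ± 0.16 and 1.30 ± 0.16 without WT4 (adjusted p = 2.02e-07 and 1.1e-05). With all libraries the rise in MycKO was not called without any 1 of the MycKO libraries (3.07 to 3.17) nor with edgeR (1.87, adjusted p = 0.0769).

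Stat2 was at 154, 169 and 17.8 CPM in WT, 312, 262 and 258 CPM in MlxKO, 188, 237 and 233 CPM in MycKO and 204, 165 and 162 CPM in DKO. It rose in MlxKO by 1.81 ± 0.61 (limma, adjusted p = 0.0326), lost without any 1 MlxKO library, and by 0.77 ± 0.14 without WT4 (adjusted p = 0.000598). In MycKO its difference was 1.47 ± 0.61 (adjusted p = 0.062, limma) and 0.43 ± 0.14 without WT4 (adjusted p = 0.0165). Irf1 was at 20.5, 26.6 and 11.2 CPM in WT, 49.3, 49.1 and 53.2 CPM in MlxKO, 32.4, 32.7 and 33.4 CPM in MycKO and 25.2, 19.6 and 25.8 CPM in DKO. It rose by 1.41 ± 0.23 in MlxKO and 0.81 ± 0.23 in MycKO (adjusted p = 0.000968 and 0.0126, limma), and without WT4 by 1.08 ± 0.14 and 0.47 ± 0.14 (adjusted p = 4.58e-05 and 0.011). Irf9 did not follow, with 122, 126 and 16.8 CPM in WT, 138, 123 and 132 CPM in MlxKO, 122, 123 and 117 CPM in MycKO and 139, 127 and 141 CPM in DKO. Its differences were 1.01 in MlxKO and 0.90 in MycKO (adjusted p = 0.153 and 0.187, limma) and 0.08 and -0.04 without WT4 (adjusted p = 0.524 and 0.773).

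Ifi27 was the exception again. It was at 104, 100.3 and 51.3 CPM in WT, 36.9, 53.0 and 53.8 CPM in MlxKO, 75.9, 55.8 and 56.4 CPM in MycKO and 83.8, 88.0 and 86.8 CPM in DKO. It fell in MlxKO by 0.77 ± 0.24 although its libraries overlapped with WT4 (limma, adjusted p = 0.0245), and by 1.10 ± 0.16 without WT4 (adjusted p = 0.000146).

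For immortalized MycKO against WT the result turned on WT4. With all libraries 10 members rose and 1 fell in immortalized MycKO against WT (24.4% and 23.5% of all genes), with a median of 0.90. Without WT4, 17 rose and 20 fell (27.3% and 26.7%), with a median of -0.25. The 10 that rose with all libraries were Isg15, Irf1, Irf7, Oasl1, Zbp1, Gbp2, Trim30a, Trim30d, Psmb8 and Psmb9, and each of them rose without WT4 too. Among the 20 that fell without it were all 4 IFIT genes, Mx1, Mx2, Oas2, Oas3, Rsad2, Ifi203, Ifi204 and Ifih1.

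**Figure D5:**
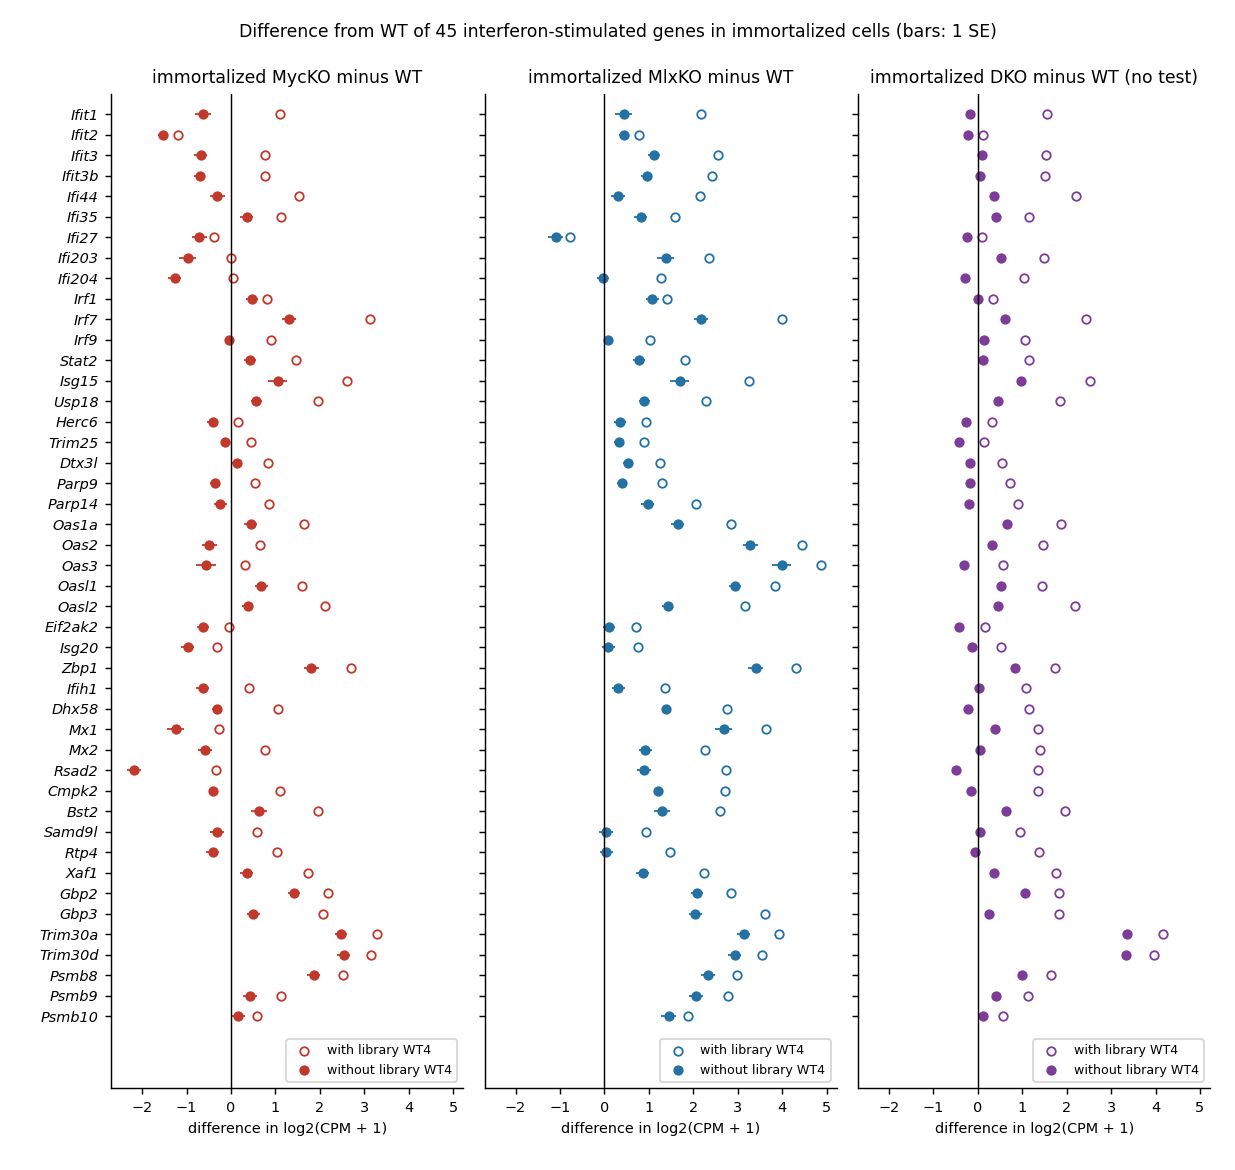
Difference from WT in log2(CPM + 1) of the 45 members in immortalized MycKO, MlxKO and DKO cells, 1 point per member, open with all libraries and filled without WT4. Bars of 1 SE are on the filled MycKO and MlxKO points only, since DKO was not tested. Leaving out WT4 moves the median from 0.90 to -0.25 in MycKO, from 2.29 to 0.97 in MlxKO and from 1.36 to 0.11 in DKO.

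Isg15 was at 83.9, 140.4 and 3.35 CPM in WT, 298, 199 and 194 CPM in MycKO, 328, 364 and 369 CPM in MlxKO and 242, 179 and 221 CPM in DKO. It rose in MycKO by 2.60 ± 0.91 (limma, adjusted p = 0.0323) and by 1.05 ± 0.21 without WT4 (adjusted p = 0.000977). Psmb8 was at 15.7, 18.1 and 3.59 CPM in WT and 81.7, 56.0 and 57.0 CPM in MycKO, and rose by 2.51 ± 0.40 (adjusted p = 0.000347, limma) and by 1.86 ± 0.15 without WT4 (adjusted p = 2.33e-07). Both had fallen in primary MycKO.

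Ifit2 was the member that fell with all libraries. It was at 120.2, 114 and 57.2 CPM in WT, 42.7, 38.5 and 39.1 CPM in MycKO, 184, 142 and 154 CPM in MlxKO and 96.7, 104 and 99.2 CPM in DKO. It fell in MycKO by 1.18 ± 0.22 (limma, adjusted p = 0.00105), and by 1.53 ± 0.11 without WT4 (adjusted p = 1e-07). Rsad2, or viperin, which makes a chain-terminating nucleotide, was at 82.6, 76.8 and 0.730 CPM in WT, 13.7, 19.3 and 17.9 CPM in MycKO, 179, 136 and 136 CPM in MlxKO and 49.9, 60.0 and 59.8 CPM in DKO. Its MycKO libraries were below WT2 and WT3 and above WT4, so its difference was -0.33 with all libraries (adjusted p = 0.816, limma) and -2.18 ± 0.16 without WT4 (adjusted p = 7.33e-08).

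Between the single knockouts, where no WT library enters the difference, the list was lower in MycKO than in MlxKO. With the spread estimated over all groups 10 members were lower and 0 higher (14.4% and 16.5% of all genes), with a median of -0.95. At an unadjusted p under 0.05 limma also gave no member as higher, and past the adjusted threshold edgeR and DESeq2 gave 0 as well. The spread of WT4 entered the limma estimate. Without WT4, 42 were lower and 1, Ifi27, higher (21.4% and 22.4%), all but Irf9 and Samd9l being called. With only these groups fitted, 40 were lower and 0 higher (19.4% and 20.3%). In all 45 members the libraries of MycKO and MlxKO did not overlap, 44 of them lower in MycKO and 1 higher, against 26.4% and 26.3% of the 12880 genes.

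The largest of these differences were those of Oas3, Mx1, Oas2 and Rsad2. They were -4.56 ± 0.54, -3.93 ± 0.58, -3.78 ± 0.68 and -3.07 ± 1.06 (limma, adjusted p = 5.79e-05, 0.000292, 0.00119 and 0.0446), and the last was not called without any 1 MycKO, MlxKO or DKO library. Mx1 was at 5.91, 7.82 and 0.0609 CPM in WT, 2.66, 2.03 and 2.25 CPM in MycKO, 58.2, 45.7 and 44.9 CPM in MlxKO and 7.56, 8.82 and 11.8 CPM in DKO. It rose in MlxKO against WT by 3.65 ± 0.58 (adjusted p = 0.000846, limma) and fell in MycKO by 1.24 ± 0.19 without WT4 (adjusted p = 9.88e-05). The standard errors of the 4 without WT4 were 0.20, 0.17, 0.15 and 0.14.

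The immortalized values of Trim30a and Trim30d follow. Trim30a was at 23.1, 21.4 and 3.35 CPM in WT, 126, 128 and 129 CPM in MycKO, 244, 173 and 195 CPM in MlxKO and 208, 255 and 249 CPM in DKO. Trim30d was at 6.03, 5.38 and 0.852 CPM in WT, 33.8, 39.8 and 40.4 CPM in MycKO, 62.4, 43.6 and 46.1 CPM in MlxKO and 61.1, 70.0 and 69.4 CPM in DKO. All 9 knockout libraries were above all 3 WT libraries for both genes. The values of MycKO and MlxKO are set here against the same WT libraries that entered the DKO difference by which the list was chosen. In MycKO the rises were 3.28 ± 0.48 and 3.16 ± 0.38 (limma, adjusted p = 0.000186 and 4.61e-05), and without WT4 2.47 ± 0.14 and 2.54 ± 0.15 (adjusted p = 4.52e-09 and 9.92e-09). In MlxKO they were 3.94 ± 0.48 and 3.55 ± 0.38 (adjusted p = 0.00021 and 0.000101, limma), and without WT4 3.13 ± 0.14 and 2.93 ± 0.15 (adjusted p = 1.66e-09 and 7.91e-09). The MycKO minus MlxKO differences of -0.66 and -0.39 (adjusted p = 0.318 and 0.464, limma) passed the threshold without WT4 (adjusted p = 0.00057 and 0.0298).

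In immortalized DKO most of the rest of the list was near WT2 and WT3. The DKO minus WT median was 1.36 with WT4 in the WT mean, with 32 members more than 1 above WT, and 0.11 without WT4, with 4 members more than 1 above. Over all 12880 genes the medians were -0.01 and 0.00, and 3.57% and 2.70% were more than 1 above WT. Without WT4 the differences ran from -0.49 to 3.35, with 29 members above 0, 16 below it and 34 within 0.5 of it. The 4 were Trim30a (3.35), Trim30d (3.34), Gbp2 (1.06) and Psmb8 (1.00). Next came Isg15 (0.96), Zbp1 (0.83), Oas1a (0.67), Bst2 (0.64), Irf7 (0.61), Oasl1 (0.53) and Ifi203 (0.51). No member lay more than 0.5 below WT. Of all genes, 2 lay above Trim30d in that ranking, Trim30a among them. These values are a description, since the list was chosen partly on them.

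Macrophage markers were at or near 0 in immortalized cells. Their summed level was 1.94 to 5.91 CPM, and Adgre1, C1qa, C1qb, C1qc, Tyrobp and Cx3cr1 had no read in any immortalized library. Cd68, also found outside macrophages, was the only one of the 15 tested, at 0.824 to 5.20 CPM. It fell in MycKO by 0.97 and rose in MlxKO by 0.42 against WT, and by 0.92 and 0.47 without WT4.

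Of the pathway lists, the ligands again lay at the counting limit in immortalized cells. Their summed level was at most 0.459 CPM and Ifnb1, interferon beta, was at 0.145, 0.350 and 0.306 CPM in MlxKO, 0, 0.111 and 0 CPM in WT, 0 in all MycKO libraries and 0.171, 0.0566 and 0.221 CPM in DKO, values of a few reads that were not tested. The inhibitors Socs1 and Socs3, which feed back on the receptors, rose in MycKO by 1.45 and 1.00 and in MlxKO by 1.37 and 1.16, and without WT4 by 1.17 and 1.04 and by 1.09 and 1.20. The adaptor Sting1 rose in MycKO by 0.54 and in MlxKO by 0.91, and without WT4 by 0.45 and 0.82, whereas it had fallen in primary MlxKO. In MlxKO the receptors Ifnar1 (-0.25) and Ifngr1 (-0.59) and the kinase Jak2 (-0.50) fell, and Adar rose by 1.44. Without WT4 the values were -0.23, -0.56, -0.56 and 0.81, and that of Ifnar1 was not called (limma, adjusted p = 0.0647). Over the lists, 2 of 5 receptors, 1 of 5 kinases and STATs, 3 of 9 sensors and 4 of 10 inhibitors rose in MycKO, and 0, 1, 4 and 5 in MlxKO, where 24.4% and 19.1% of all genes rose. In the same order 0, 2, 1 and 2 fell in MycKO and 2, 2, 0 and 0 in MlxKO. Of all genes 23.5% and 19.9% fell. Without WT4 the counts that rose were 2, 1, 3 and 3 in MycKO and 0, 1, 4 and 5 in MlxKO, where 27.3% and 23.1% of all genes rose. The counts that fell were 0, 3, 3 and 3 in MycKO and 1, 2, 0 and 0 in MlxKO. Of all genes 26.7% and 23.8% fell. The sensors Ddx58 (-0.69) and Tlr3 (-0.76) were among those that fell in MycKO without WT4.

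Reads shared between genes limit some of these values. Of the 45 members 8 held no 50-base stretch in common with another annotated transcript, 24 shared up to 10% of their stretches and 13 shared more. Beside those named above, the 13 included Rtp4 (27.0%, with Gm45338), Isg15 (23.9%, with Gm46878), Ifi35 (18.5%, with Vat1), Oas1a (17.3%, with Oas1g and others), Herc6 (13.9%) and Psmb8 (11.2%). Parp9 and Dtx3l, on chromosome 16, overlap over 458 exonic bases.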

How the data were processed

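RNA was sequenced in 24 libraries of MEFs of 4 genotypes, primary or immortalized, 3 libraries each. Per the study's methods, poly-A RNA (RIN above 9.6) was made into directional libraries, sequenced on an Illumina instrument and quantified in CLC Genomics Workbench on mouse build GRCm 39, the build also named in the submitters' processing notes. Whether counting used strand, and the annotation, are not given in the sources used here. The deposited values are CPM-like signals that the authors scaled between libraries, so that columns sum to 915691 to 1077213. Each value was a whole multiple of what 1 read was worth (100% of values, tolerance 0.01), which recovered the reads and the depth. All 24 columns were used.

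Genes reaching 1 CPM in 3 or more of 12 libraries were tested on log2(CPM + 1) by limma 3.58.1 with a trended prior (R 4.3.3), the 4 groups of a table in 1 fit, 2-sided, with Benjamini-Hochberg adjustment over all genes at 0.05. The study required 3 tools to concur on a call. edgeR 4.0.16 on the recovered reads called 5565, 1193, 6503 and 2857 genes in primary MycKO, MlxKO and DKO against WT and DKO against MycKO, 1775 for the interaction, and 6106, 4925 and 3928 in immortalized MycKO and MlxKO against WT and MycKO against MlxKO. DESeq2 1.42.0, pseudocount 0.1, other filters and scalings, fits of the compared groups alone and omission of each library were alternatives. Omitting WT4 was also shown in full after the data were seen. The members and lists were chosen with earlier results of these data known. Members named were up to 4 called with the largest rise or fall per comparison whose libraries did not overlap, plus Trim30a, Trim30d, Stat2, Irf7, Irf9 and Irf1; others named singly were chosen after their values were seen. Intervals from 3 reads cover counting error only. Shared stretches were 50-base words found in other transcripts of GENCODE (GRCm39). Scripts were tested on simulated data. 1 item is not reported here.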

Additional observations from a re-analysis of the deposited data

Results flagged for a closer look

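Whether the DKO minus MycKO difference departed from the MlxKO minus WT difference was tested by the interaction term in primary cells. It was past the threshold for the 4 members with the largest terms, Irf7 (2.23), Usp18 (1.93), Ifi44 (1.92) and Ifi203 (1.62), and for Irf9 (0.60), Stat2 (0.62), Trim30a (1.61) and Trim30d (1.33), by limma with adjusted p-values over all genes.

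For several members every knockout library was below every WT library in primary cells and above every WT library in immortalized cells. For MycKO minus WT the primary and immortalized differences were -1.89 and 3.13 for Irf7, -0.75 and 1.47 for Stat2, -1.51 and 3.28 for Trim30a and -0.62 and 3.16 for Trim30d, the immortalized values being 1.30, 0.43, 2.47 and 2.54 without WT4. For MlxKO minus WT they were -0.27 and 1.41 for Irf1 and -0.76 and 4.87 for Oas3, with 1.08 and 3.99 in immortalized cells without WT4. Stat2 in immortalized MycKO with all libraries (limma, adjusted p = 0.062) and Irf1 in primary MlxKO (adjusted p = 0.137) were not called. Of the 44 members tested in both tables, 18 were lower in all primary and higher in all immortalized MycKO libraries, against 3.06% of the 12402 genes tested in both, and 10 in MlxKO libraries, against 3.44%. WT4 was the lowest WT library for every member, so leaving it out could not change the counts of 18 and 10. The shares of all genes were 6.14% and 6.39% without it. These differences between cell states were not tested, because the tables were made separately. Trim30a and Trim30d are among the 18. Their immortalized WT libraries also entered the DKO difference by which the list was chosen, so their values are not independent of that choice.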

How the results depend on the processing

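A count of members called was taken as kept where it lay within a fixed factor of the main count, whatever the direction of the calls. Under other settings 66 counts and medians were kept and 8 moved, and with a library left out 87 were kept and 15 moved. Of the values of named members, 589 kept their direction and their side of the threshold under other settings and 34 changed. With a library left out 882 of these values kept both, 44 lost their call, 14 gained one and 8 turned sign. No paired analysis was possible because no label links the numbered columns of the tables to a replicate. In primary MlxKO against WT, 7 members were called, 3 with no filter and 1 to 10 with a library left out (1 without MlxKO7, 2 without WT2, 3 without WT1, 4 without WT3 or MlxKO5, 10 without MycKO10). In immortalized MycKO against WT, 11 were called, 7 with no filter, 6 with the compared groups only, 7 with edgeR, 7 with DESeq2, 7 with all 3 tools, and 7 to 37 with a library left out (18 without WT2, 21 without WT3, 37 without WT4). Immortalized MlxKO against WT gave 32, 12 with the compared groups only and 18 to 39 with a library left out. Immortalized MycKO against MlxKO gave 10, 40 with these groups only and 8 to 43 with a library left out (8 without MycKO9, 43 without WT4). The immortalized DKO minus WT median was 1.36, and 0.11 to 1.98 with a library left out. Counts ranged over 39 to 40, 24 to 32, 32 to 36 and 30 to 34 in primary MycKO and DKO against WT, DKO against MycKO and the interaction. Signs turned for 5 differences: Irf9 in primary MlxKO (0.01), to -0.0059 with median-ratio scaling, -0.0058 with edgeR, -0.0086 with DESeq2 and -0.0359 to 0.0758 with a library left out, below 0 without WT2, WT3 or MlxKO7; Trim30d in primary MlxKO to between -0.0202 without WT2 and 0.170 without WT1; Trim30a in primary DKO to -0.0610 with library totals and between -0.0712 without WT2 and 0.0797 without WT1; Irf7 in primary DKO to between -0.183 without WT2 and 0.0886 without WT1, above 0 also without DKO13; and, from 0.90, Irf9 in immortalized MycKO to between -0.0356 without WT4 and 1.38 without WT3. Library totals moved the median of all genes by 0.16 in immortalized MlxKO against WT and by -0.15 in MycKO against MlxKO. The cause of these changes was not tested. Depth limits the ligands, Mx1 in primary cells, Oas3 in primary MycKO, and Oas2, Oas3 and Mx1 in immortalized WT4 to a few reads.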

Other observations

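The genes next to Trim30a and Trim30d on chromosome 7, chosen after their values were seen, are given as a description. In immortalized cells Trim12c was at 74.4, 78.9 and 8.52 CPM in WT2, WT3 and WT4, 61.0 to 72.7 CPM in MycKO, 68.9 to 91.1 CPM in MlxKO and 66.1 to 76.2 CPM in DKO. Trim34a was at 15.0, 15.9 and 1.58 CPM in WT, 17.7 to 21.0 CPM in MycKO, 15.9 to 23.8 CPM in MlxKO and 15.3 to 17.1 CPM in DKO. Trim12a was at 21.1, 23.3 and 2.86 CPM in WT, 19.3 to 22.1 CPM in MycKO, 27.9 to 32.2 CPM in MlxKO and 20.4 to 25.4 CPM in DKO. All 3 were low in WT4, and their DKO libraries lay near WT2 and WT3. Trim30c had no read in the WT libraries and 0.114 to 0.714 CPM in the knockout libraries, or 2 to 14 reads.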
